A study of Mus musculus with 8 samples.

Results

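The cytosolic ribosomal protein genes were examined in AML-12 cells, an established mouse hepatocyte line, with and without overexpression of GM47544. Members were taken by symbol: all rows beginning Rpl or Rps followed by a digit, together with Rplp0, Rplp1, Rplp2 and Rpsa, leaving out the Rps6k kinases, Rps19bp1 and rows marked as pseudogenes by their symbol. The rule gave 85 of the 21983 gene symbols of the count table, 52 of the large and 33 of the small ribosomal subunit. RNA was sequenced from 4 control libraries, whose cells are labelled wild type and pLKO.1 (a lentiviral plasmid backbone), and 4 libraries from cells labelled as overexpressing GM47544. Both groups are AML-12 cells kept in DMEM with 10% fetal bovine serum, and the labels name no drug, dose or time point. Whether a group's 4 libraries were grown or transduced separately is not told by the labels. Each p-value therefore refers to library-to-library spread, possibly of technical origin. The level of GM47544 is not analysed here.

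Each cytosolic ribosome holds a small subunit, which reads the mRNA, and a large subunit, which joins amino acids and releases the growing chain through an exit tunnel. The ribosomal proteins are needed in near-equal amounts, and many of their mRNAs begin with a C followed by a run of pyrimidines (the 5′ terminal oligopyrimidine tract), through which mTORC1 and LARP1 control their translation and stability. Hepatocytes, which secrete much protein, carry many ribosomes. The genes have given rise to large numbers of processed pseudogenes, so that reads from a ribosomal protein mRNA can match several places in the genome.

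Library totals ranged from 11016907 to 18965662 counts. A symbol was tested if it passed a low-count filter, which left 11520 genes. Values are given as CPM, a library's counts scaled to a common total with trimmed-mean factors, and log2 fold changes are overexpression over control. A gene was called at a Benjamini-Hochberg adjusted p under 0.05, taken over all 11520 genes, in edgeR's quasi-likelihood test. The control libraries were spread more widely than the overexpression libraries. Control library 3 lay nearest the overexpression group: it had the lowest control CPM for 63 of 82 tested members (76.8%), against 41.9% of all tested genes. Counts are therefore also given without it.

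The transcript starts of 11 members that the results below turn on, 15 bases before the RefSeq start and 15 from it (GRCm38.p6), are shown to let the pyrimidine tract be seen beside the values. Capitals mark a C followed by at least 4 pyrimidines that begins within 5 bases of the listed start. Among the P stalk and 5S RNP genes, Rplp2 and Rpl12 had such a tract within 5 bases of the listed start and Rplp0, Rpl5 and Rpl11 did not. For Rplp1 no RefSeq start was matched. Whether the mRNAs in these cells begin at the listed starts was not tested, so a missing tract here does not show that the mRNA lacks it.
Rplp0 (chr5:115559452-115559481, plus strand): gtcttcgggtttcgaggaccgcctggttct
Rplp2 (chr7:141447636-141447665, plus strand): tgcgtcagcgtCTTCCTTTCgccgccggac
Rpl12 (chr2:32961697-32961726, plus strand): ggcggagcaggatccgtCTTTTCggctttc
Rpl5 (chr5:107900513-107900542, plus strand): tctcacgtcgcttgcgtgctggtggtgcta
Rpl11 (chr4:136053379-136053408, minus strand): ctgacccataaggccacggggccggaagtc
Rpl36a (chrX:134585639-134585668, plus strand): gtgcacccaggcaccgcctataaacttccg
Rpl13a (chr7:45128731-45128760, minus strand): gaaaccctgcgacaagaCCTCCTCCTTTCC
Rps10 (chr17:27635230-27635259, minus strand): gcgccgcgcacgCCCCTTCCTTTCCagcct
Rps21 (chr2:180257364-180257393, plus strand): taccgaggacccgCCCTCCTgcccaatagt
Rps27 (chr3:90213634-90213663, minus strand): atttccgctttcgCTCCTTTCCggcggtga
Rps27rt (chr9:114982725-114982754, minus strand): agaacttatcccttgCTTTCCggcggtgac

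RefSeq starts were matched for 65 of the 85 members. The listed start was itself a C followed by at least 4 pyrimidines, in some within a longer tract, in 13 of them (20%), 6 of 40 of the large and 7 of 25 of the small subunit, against 2.49% of 27025 mouse genes. A tract beginning within 5 bases of the start was present in 28 (43.1%) of the members and in 18.5% of all genes. From 250 bases before to 50 after the start, both strands read, the ETS-type letters CCGGAAG were found in 25 members (38.5%) against 9.12% of all genes and 19.2% of tested genes. The YY1-type letters AAGATGGC were in 5 members (7.69%) against 2.88% of all and 4.97% of tested genes. These are letter matches only. For members the listed start nearest the annotated transcript's 5′ end was read, and for all and tested genes the first listed, so the shares rest on unlike choices. The 28 tested members with a tract within 5 bases of the start had a median log2 fold change of -1.16, and the 34 without had -0.81. Of the first, 26 fell, and of the second, 26 fell and 1 rose, against 32.1% lower and 32.3% higher over all genes. Under the narrower definition the order was the other way: the 13 members with such a start had a median of -0.90 and the 49 without had -1.01. Fold change was thus not ordered by the tract in the same way under both definitions.

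The ribosomal protein genes were lower in the overexpression cells, by a median of -1.01 on the log2 scale over the 82 members tested, against 0.000406 over all 11520 genes. By edgeR's test 69 members fell and 2 rose, Rpl3 and Rpl5, while 11 had no call. Over all tested genes 32.1% fell and 32.3% rose, so that changes in either direction (64.4%) were the common state of genes in this comparison. The decrease was at least 2-fold and called in 42 members, against 9.02% of all genes. All 4 overexpression libraries lay below all 4 controls in 69 members (27.5% of all genes) and above them in 2 (28.5% of all genes). Without control library 3, 72 members fell and 2 rose, and the median was -1.13. In bulk RNA, less of these mRNAs per cell and fewer cells carrying them cannot be told apart.

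Much of the size of this decrease was shared with other short transcripts. Tested members had a median transcript length of 814.5 bases, against 2944 for all tested genes, and across 11491 genes the log2 fold change rose with length (Spearman's rho 0.437, a description across genes, which are not independent replicates). Of 583 other genes with transcripts from 500 to 1000 bases, 70.5% fell, with a median of -0.84. The 43 members in that range had a median of -0.93, and 35 of them fell. In the range from 1000 to 2000 bases the 20 members had a median of -1.01 and 17 fell, while the 2448 other genes had a median of -0.39 and 52.2% fell. When the trend with length was removed from the counts, 41 members fell, 12 rose and the median was -0.29, against 30.7% of all genes lower and 29.1% higher. The 41 had all been called lower before. Length here is that of 1 annotated transcript per gene, which can differ from the mRNA present. For Rps25, at 1280 bases, the matched RefSeq start lay 575 bases from that transcript's 5′ end. The effect of this choice on the length ranges and on removal of the trend was not tested. The cause of the length trend was not tested.

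**Figure D1:**
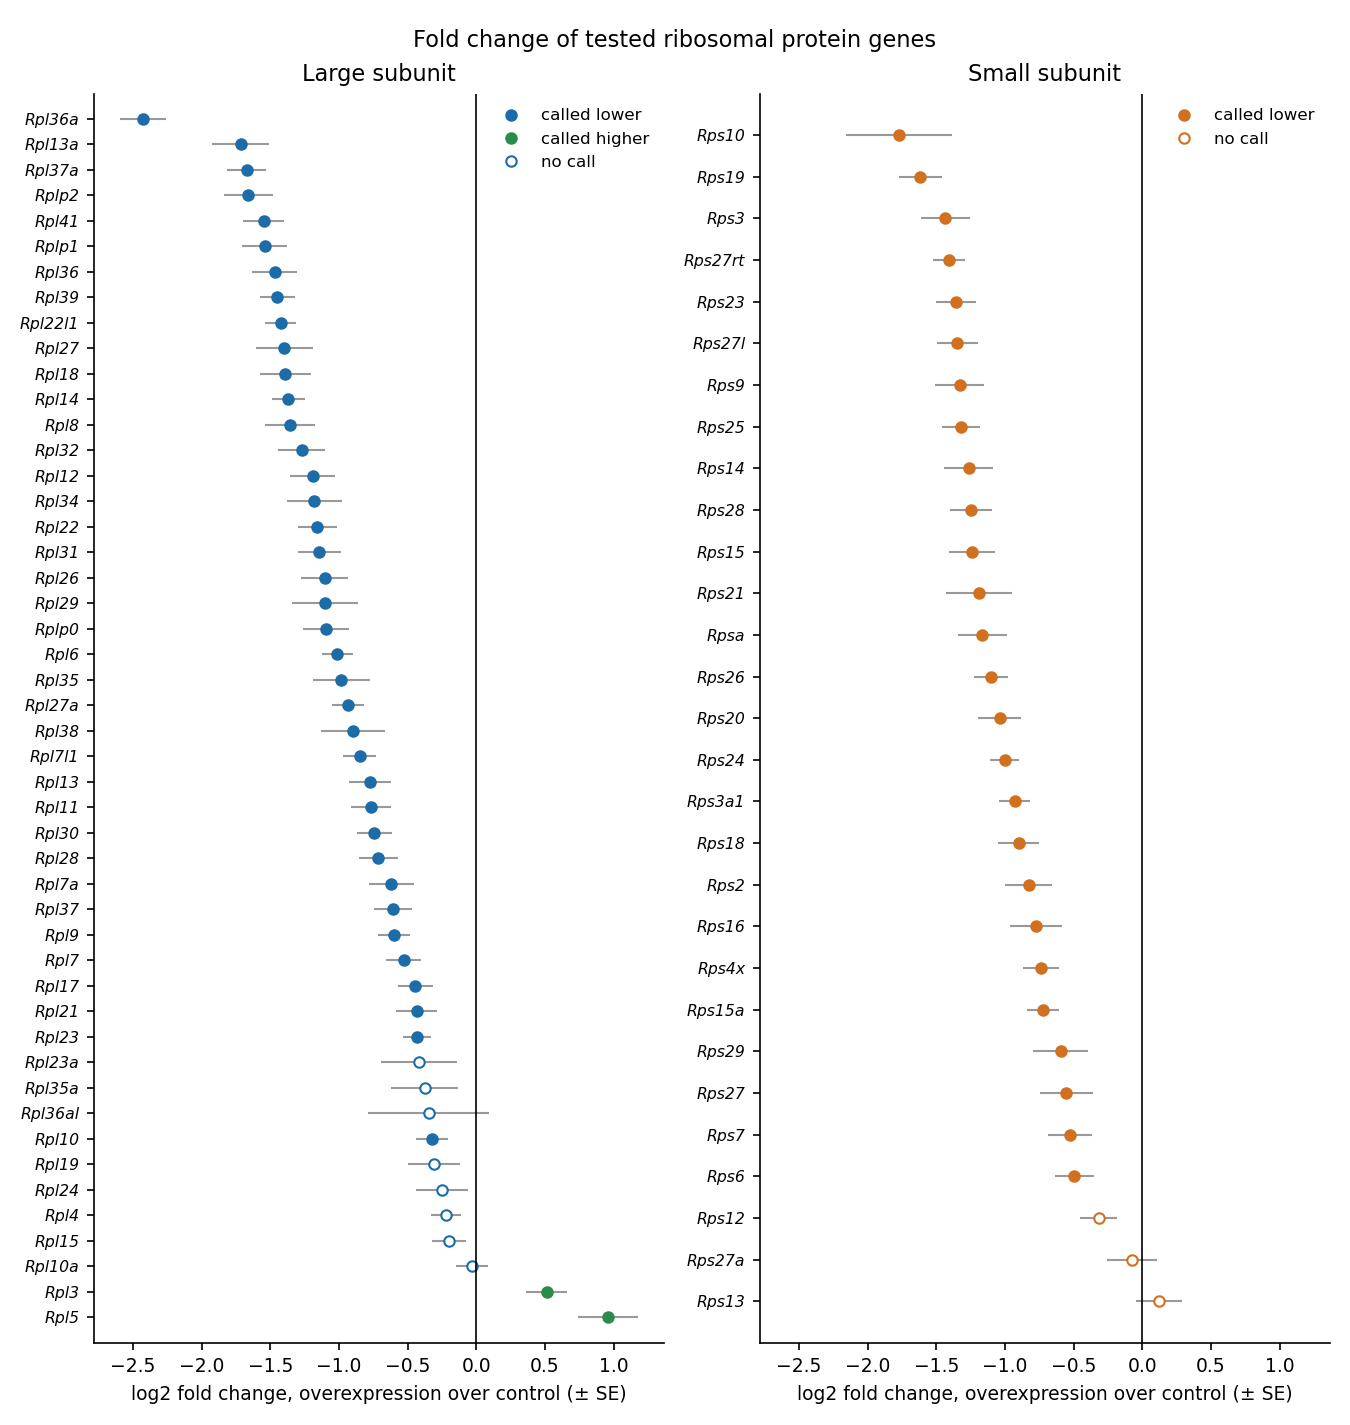
Log2 fold change (x axis, overexpression over control, bars ± SE) of 48 large and 29 small subunit members tested, ordered by size. Filled points were called and open points were not, and Rpl3 and Rpl5 are the only called points right of 0.

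In both subunits most genes fell, where 32.1% of all genes fell and 32.3% rose. Of 49 large subunit members tested, 39 fell, 2 rose and 8 had no call, with a median of -0.93. Of 33 small subunit members, 30 fell, none rose and 3 had no call, with a median of -1.10. At least 2-fold called decreases were found in 23 large and 19 small subunit members, against 9.02% of all genes. With the length trend removed the medians were -0.29 in both, with 22 of the large and 19 of the small subunit lower and 6 higher in each. In that fit 30.7% of all genes were lower and 29.1% higher.

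As a share of all counts, the large subunit genes took 2.03%, 1.73%, 1.40% and 1.96% in the controls, numbered 1 to 4, and 0.957%, 0.952%, 0.957% and 0.927% with overexpression in the same order. The small subunit genes took 2.07%, 1.71%, 1.34% and 2.00% in the controls and 0.855%, 0.855%, 0.864% and 0.844% with overexpression. Every overexpression library was below every control, and control library 3 was the lowest control for each subunit. The mean share went from 1.78% ± 0.286 to 0.948% ± 0.0141 for the large subunit (SD, n = 4), 1.88-fold lower. For the small subunit it went from 1.78% ± 0.330 to 0.854% ± 0.00820 (SD, n = 4), 2.08-fold lower.

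The ratio of large to small subunit counts was 0.983, 1.01, 1.04 and 0.979 in the controls and 1.12, 1.11, 1.11 and 1.10 with overexpression. The groups did not overlap, at 1.00 ± 0.0281 and 1.11 ± 0.00862 (SD, n = 4). No p is given for a sum over the members. These sums rest on few genes: Rplp0 held 10.7% of all member counts, and Rplp0, Rpl8, Rps3, Rpl4 and Rpsa together held 34.98%. Rpl4 (165864 counts over all libraries) and Rpl7 (125092), both of the large subunit, had small log2 fold changes, -0.22 (no call) and -0.53. The median of the large subunit was -0.93. The part of these genes in the ratio was not tested, so the ratio does not show a shift across the subunits' genes.

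**Figure D2:**
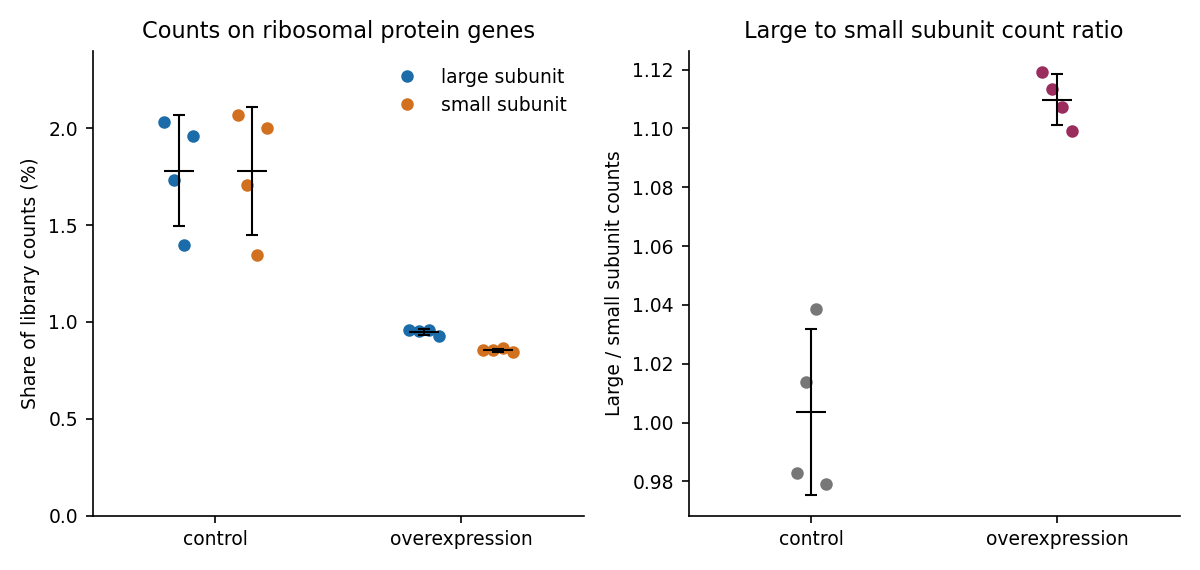
Share of library counts on large and small subunit genes (left, percent) and the ratio of the 2 sums (right, axis not from 0), each point a library, with mean and SD. The overexpression shares lie between 0.844% and 0.957%, below all controls, and the overexpression ratios lie above the control ratios.

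The P stalk is the lateral arm of the large subunit that recruits elongation factors. It is built from Rplp0, which anchors it, the acidic proteins Rplp1 and Rplp2, and Rpl12 at its base. All 4 genes fell, with a median of -1.37, and all 4 remained lower with the length trend removed (median -0.64). Over all genes 32.1% fell, and 30.7% were lower with the trend removed. Rplp0 (chr5:115559467-115563727, 7 exons), the member with the most counts, had 4720, 3644, 2639 and 4939 CPM in controls 1 to 4 against 1902, 1880, 1876 and 1813 CPM in the cells with GM47544. The groups did not overlap, and the overexpression libraries were almost level. The mean went from 3986 ± 1060 to 1868 ± 38.3 CPM (SD, n = 4). This was -1.09 ± 0.17 in log2 (SE; edgeR adjusted p = 0.000127).

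Rplp1 (chr9:61913284-61914542) had 2466, 1805, 1327 and 2057 CPM in the controls and 623, 691, 660 and 655 CPM with overexpression, a log2 fold change of -1.54 ± 0.16 (SE; edgeR adjusted p = 7.25e-06). Rplp2 (chr7:141447370-141451585) had 396, 323, 236 and 470 CPM against 124, 111, 113 and 103 CPM, a log2 fold change of -1.66 ± 0.18 (SE; edgeR adjusted p = 8.96e-06). Both were lower in every overexpression library than in any control, and control library 3 was the lowest control. The Rplp2 to Rplp1 count ratio was 0.161, 0.179, 0.178 and 0.229 in the controls and 0.200, 0.161, 0.172 and 0.157 with overexpression. These overlapped, a log2 difference of -0.11 with a two-sided exact permutation p of 0.457 (0.457 after adjustment over 4 ratios). Rpl12 (chr2:32961559-32965345) had 85.1, 65.2, 49.3 and 80.5 CPM against 28.2, 33.8, 32.2 and 28.1 CPM, again without overlap. Its log2 fold change was -1.19 ± 0.16 (SE; edgeR adjusted p = 5.3e-05).

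Rpl5 and Rpl11 bind the 5S ribosomal RNA together and, outside the ribosome, bind the p53 ubiquitin ligase Mdm2. Their counts moved in opposite directions. Rpl5 (chr5:107900502-107909005) had 4.51, 6.49, 7.81 and 3.46 CPM in the controls and 9.51, 11.2, 11.1 and 12.1 CPM with overexpression. Every overexpression library was higher than every control, and the log2 fold change was 0.96 ± 0.22 (SE; edgeR adjusted p = 0.00189). Rpl11 (chr4:136028265-136053428) had 24.8, 27.2, 21.5 and 32.6 CPM against 15.1, 15.5, 17.3 and 14.3 CPM. It was lower without overlap, by a log2 fold change of -0.77 ± 0.15 (SE; edgeR adjusted p = 0.000549), but the call was lost with the length trend removed (log2 fold change -0.04, edgeR adjusted p = 0.784). The Rpl5 value is uncertain: 46.6% of its exon bases lie opposite exons of Fam69a, and the counting is not stated to have used strand. Of the 100-base windows of its transcript, 52.8% were found in no other annotated gene.

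Around the exit tunnel (Rpl4, Rpl17, Rpl19, Rpl22, Rpl23a, Rpl26, Rpl31, Rpl35 and Rpl39), 6 of 9 genes fell and none rose, with a median of -0.98, against 32.1% lower over all genes. With the length trend removed 3 were lower and 1 higher, with a median of -0.16. Rpl35, Rpl23a and Rpl31 lie in part opposite exons of other genes, over 68.3%, 55.4% and 40.0% of their exon bases. Among the 14 members at or above 1000 CPM in the controls, Rpl4, which reaches into the tunnel wall, was the only 1 not called lower. It had 1660, 1615, 1655 and 1314 CPM in the controls and 1296, 1348, 1365 and 1345 CPM with overexpression. Control libraries 1 to 3 were above the overexpression group and control library 4 was within it, and the log2 fold change was -0.22 ± 0.11 (SE; edgeR adjusted p = 0.0882). Without control library 3 Rpl4 passed as lower (edgeR adjusted p = 0.0285), and likewise without control library 4 (0.0127). It also passed as lower by DESeq2, by limma and with the trend with GC content removed. With the length trend removed it had no call and the other sign (log2 fold change 0.14, edgeR adjusted p = 0.332). Rpl4 was nearly free of shared sequence, with 94.9% of its windows in no other gene.

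The greatest decrease of the large subunit was that of Rpl36a (chrX:134585654-134588062), which lies near the tRNA exit site. It had 40.8, 39.3, 32.7 and 25.6 CPM in the controls and 6.85, 5.78, 6.53 and 6.62 CPM with overexpression. The groups were far apart: the mean was 34.6 ± 6.96 against 6.45 ± 0.465 CPM (SD, n = 4), a decrease of 5.38-fold or a log2 value of -2.43 ± 0.17 (SE; edgeR adjusted p = 3.27e-07). With the length trend removed it was -1.48. Most of its sequence is not its own, since 16.4% of windows were in no other gene, so the count may be divided among copies. Its paralog Rpl36al had 52 counts over the 4 controls and 38 over the 4 overexpression libraries, too few for a ratio.

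Rpl13a, a protein of the large subunit surface also known for leaving the ribosome to repress translation of inflammatory mRNAs, followed. It had 62.7, 48.4, 41.8 and 72.5 CPM in the controls and 23.2, 16.6, 16.2 and 12.6 CPM with overexpression, without overlap, a log2 fold change of -1.72 ± 0.21 (SE; edgeR adjusted p = 1.99e-05). Exons of Gm45713 and Mir5121 cover 59.3% of its exon bases on the same strand, so the assignment of its reads is uncertain. Rpl37a, a zinc-binding protein, had 59.8, 52.2, 42.9 and 52.4 CPM against 19.4, 14.8, 14.5 and 16.4 CPM, also without overlap. Its log2 fold change was -1.67 ± 0.14 (SE; edgeR adjusted p = 1.67e-06).

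Most other large subunit genes fell as well. Among abundant ones, Rpl41, the shortest ribosomal protein, went from 891 ± 190 to 304 ± 20.5 CPM, Rpl18 from 665 ± 200 to 253 ± 4.75 CPM and Rpl14 from 474 ± 64.9 to 183 ± 9.18 CPM (SD, n = 4). Their log2 fold changes were -1.55, -1.39 and -1.37, and each was still called lower with the length trend removed. Rpl36 (-1.47), Rpl27 (-1.40), Rpl32 (-1.27), Rpl6 (-1.01) and Rpl27a (-0.93) were also lower under both. Rpl34 (-1.18), Rpl29 (-1.10), Rpl38 (-0.90), Rpl13 (-0.77), Rpl30 (-0.74), Rpl28 (-0.71), Rpl37 (-0.61), Rpl9 (-0.60) and Rpl23 (-0.43) were called lower as tested but not with the trend removed. In all of these the groups did not overlap. Rpl30 and Rpl28 lie in part opposite exons of other genes, over 57.5% and 16.6% of their exon bases.

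Per kilobase of transcript, the highest large subunit levels in the controls were those of Rplp1 (3835 CPM per kb), Rpl8 (3277) and Rplp0 (2935). Rpl8, which binds near the peptidyl transferase centre, had 3381, 2496, 1780 and 3499 CPM in the controls and 1161, 1088, 1093 and 1022 CPM with overexpression. It was lower without overlap, by a log2 fold change of -1.35 ± 0.18 (SE; edgeR adjusted p = 4.52e-05), and 98.3% of its windows were in no other gene.

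In the small subunit, 13 of the 14 genes listed as early-assembled core and body fell, with a median of -0.91, and Rps13 had no call. Of the 16 tested genes listed as head and late joining, 14 fell, with a median of -1.18. The first list also holds Rps16 and Rps18 of the head, so the lists do not strictly part body from head. Without the length trend the first had 8 lower and 1 higher (median -0.31) and the second 9 lower and 4 higher (median -0.26). These compare with 32.1% of all genes lower as tested and 30.7% with the trend removed. Among the highest levels per kilobase in the controls were those of Rps14 (3061 CPM per kb) and Rps9 (2240). Rps14, of the platform, had 2290, 1640, 1171 and 2209 CPM in the controls and 747, 752, 761 and 785 CPM with overexpression. Rps9 had 1972, 1506, 1083 and 2169 CPM against 706, 662, 681 and 626 CPM. Neither overlapped between groups, and in both control library 3 was the lowest control. Their log2 fold changes were -1.26 ± 0.18 and -1.33 ± 0.18 (SE), with edgeR adjusted p of 6.63e-05 and 4.82e-05.

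Rps3, at the mRNA entry and also a DNA repair endonuclease, shared no window with another annotated gene. It had 3331, 2457, 1804 and 3535 CPM in the controls and 1041, 1044, 1039 and 991 CPM with overexpression. The groups did not overlap, and the log2 fold change was -1.43 ± 0.18 (SE; edgeR adjusted p = 2.71e-05), or -1.19 with the length trend removed. Rps19, the gene most often mutated in Diamond-Blackfan anaemia, had 688, 546, 399 and 670 CPM against 177, 199, 196 and 179 CPM. It too was lower in every overexpression library, by a log2 fold change of -1.62 ± 0.16 (SE; edgeR adjusted p = 4.5e-06).

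The other small subunit genes included Rps15 at 1060 ± 281 CPM in the controls and Rps7 at 10.7 ± 1.11 CPM (SD, n = 4). Rps23 and Rps25 had log2 fold changes of -1.35 and -1.32, Rps15 had -1.24, Rps26 -1.10 and Rps3a1 -0.93. Rps24 went from 564 ± 63.0 to 282 ± 7.25 CPM (SD, n = 4). All 6 were called lower with and without the length trend, but 52.2% of the exon bases of Rps25 lie opposite other genes. Rps21, a late-joining protein shown above with its tract, had 257, 182, 168 and 391 CPM in the controls and 135, 89.5, 123 and 90.0 CPM with overexpression. Its groups did not overlap, though both were uneven, and the log2 fold change was -1.19 ± 0.24 (SE; edgeR adjusted p = 0.000944). Rps21 (with the trend removed -0.09), Rps28 (-1.25 as tested), Rps18 (-0.90), Rps16 (-0.77) and Rps7 (-0.52) were called lower as tested and lost the call with the length trend removed. For Rps15a and Rps20, whose annotated transcripts are long, removal of the trend gave larger decreases, from -0.72 to -1.10 and from -1.04 to -1.21.

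Rps10, of the small subunit head, had the greatest decrease in its subunit but few reads: 29, 38, 15 and 32 counts in the controls and 8, 10, 9 and 4 counts with overexpression. The log2 fold change was -1.77 ± 0.39 (SE; edgeR adjusted p = 0.0015), the groups apart but with control library 3 close above the overexpression libraries. The annotated readthrough gene RPS10-NUDT3 covers 53.6% of its exon bases on the same strand, so its level here is uncertain. Of the 18 members with published Diamond-Blackfan anaemia mutations, 15 fell, 1 rose (Rpl5) and 2 (Rpl15 and Rpl35a) had no call, with a median of -0.99. After removal of the length trend 7 were lower and 4 higher, with a median of -0.18. Over all genes 32.1% fell as tested, and 30.7% were lower and 29.1% higher after removal. The 4 X-linked members (Rpl10, Rpl36a, Rpl39 and Rps4x) all fell, where 32.1% of all genes did. Once the length trend was removed, 2 were lower and Rpl10 was higher (log2 fold change 0.40, edgeR adjusted p = 0.0225).

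**Figure D3:**
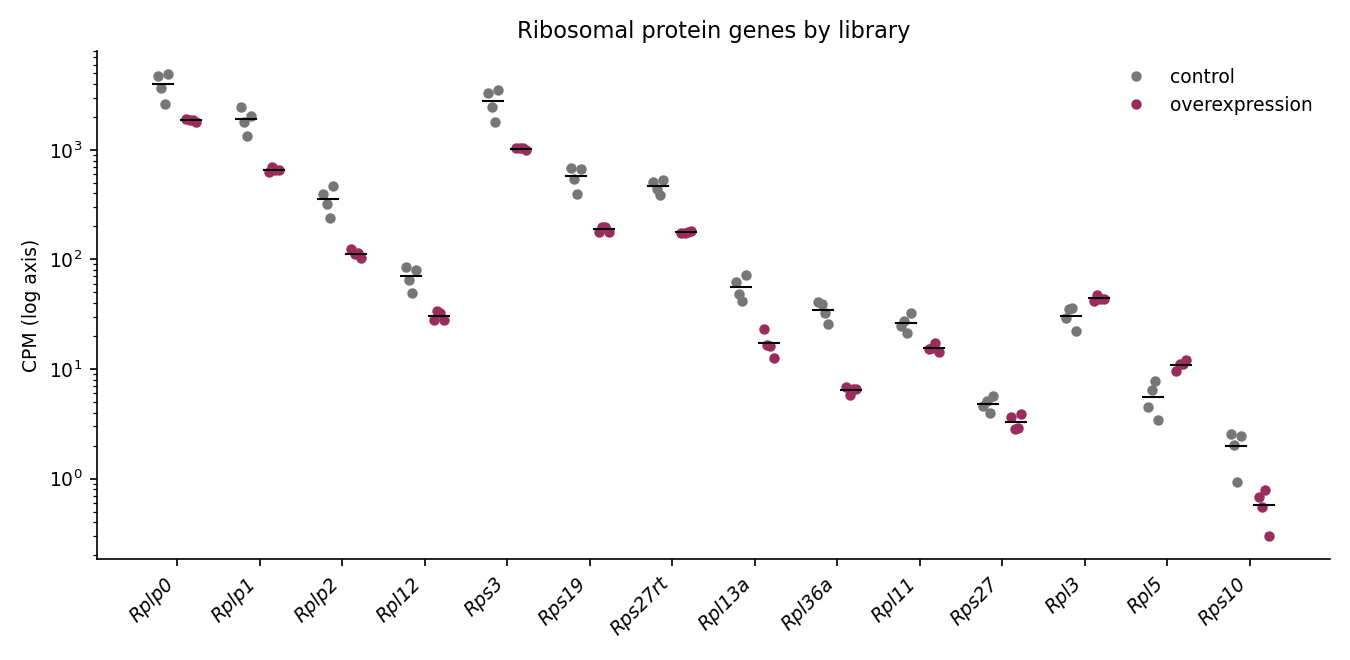
CPM (log axis) of 14 members in each of the 4 control and 4 overexpression libraries, with group means as lines. Rpl3 and Rpl5 have the overexpression points above the controls, and the other 12 have them below.

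Rpl3, which lies close to the peptidyl transferase centre, was the other member that rose. It had 29.0, 35.4, 36.4 and 22.4 CPM in the controls and 41.9, 47.3, 43.1 and 43.8 CPM with overexpression, without overlap. The log2 fold change was 0.51 ± 0.15 (SE; edgeR adjusted p = 0.009), and 20.6% of its windows were in no other gene. Its muscle paralog Rpl3l had 2 counts over the controls and 4 over the overexpression libraries. The testis-type paralogs Rpl10l and Rpl39l had none in any library, and these 3 members were not tested.

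Among members with no call, Rpl10a had 65.0, 64.2, 53.3 and 70.2 CPM in the controls and 58.4, 65.5, 63.5 and 59.7 CPM with overexpression, with the groups overlapping and a log2 fold change of -0.03 ± 0.11 (SE; edgeR adjusted p = 0.823). Rpl15 had 94.2, 77.2, 79.9 and 64.6 CPM against 64.3, 67.1, 71.1 and 72.4 CPM, also overlapping (log2 fold change -0.20 ± 0.12, SE; edgeR adjusted p = 0.173). Rpl15 was called lower without control library 4 (edgeR adjusted p = 0.0366), by limma and with the trend with GC content removed. With the length trend removed it had no call (log2 fold change 0.025). The others of the large subunit were Rpl4, Rpl19, Rpl23a, Rpl24, Rpl35a and Rpl36al. Of these, Rpl23a, Rpl24, Rpl35a and Rpl36al were under 10 CPM on average in the controls. Rpl19 passed as lower by limma and without control library 3, but was called higher with the length trend removed.

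Rps13 had 5.39, 4.18, 4.06 and 4.22 CPM in the controls and 5.31, 4.90, 4.70 and 4.39 CPM with overexpression, a log2 fold change of 0.12 ± 0.17 (SE; edgeR adjusted p = 0.544). Rps27a, which is made as a fusion with ubiquitin, had 12.02, 12.4, 11.4 and 8.22 CPM against 9.68, 8.04, 12.5 and 11.9 CPM (log2 fold change -0.07 ± 0.18, SE; edgeR adjusted p = 0.73). Both overlapped between groups. Rps12 had 37.2, 33.8, 30.9 and 32.2 CPM against 20.8, 30.0, 27.3 and 29.2 CPM. Its groups did not overlap, yet it missed the threshold (log2 fold change -0.32 ± 0.14, SE; edgeR adjusted p = 0.056), which it passed without control library 3 (edgeR adjusted p = 0.00652). Rps12 also passed as lower by DESeq2 and limma, but was called higher with the length trend removed (log2 fold change 0.57). Rps6, the substrate of the S6 kinases, had 25.6, 23.4, 23.4 and 16.9 CPM against 15.7, 16.6, 15.2 and 15.9 CPM and fell by 0.49 on the log2 scale (± 0.14 SE; edgeR adjusted p = 0.00829). In the fit without the length trend Rps6 had no call and the other sign (log2 fold change 0.18, edgeR adjusted p = 0.354).

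Members that shared much sequence with other annotated genes had smaller decreases. Of the 85 members, 76 shared at least 1 window of 100 bases with another gene and 74 did so with a pseudogene. Rpl21 shared windows with 40 other genes, Rpl7a with 37 and Rps2 with 36. The 30 tested members with more than 75% of windows in no other gene had a median of -1.20, and 29 of them fell, against 32.1% of all genes. The 14 with under 25% had a median of -0.43, with 8 lower and 1 higher, and these were also less abundant (median 24.3 against 478 CPM in the controls). Over 82 members Spearman's rho between fold change and the unshared percentage was -0.364, and between fold change and the control level per kilobase it was -0.534. These share the same 8 libraries and are descriptions. Without the length trend the difference between these groups of members was wider, with a median of -0.50 against 0.44. The part of shared reads in the smaller decreases was not tested.

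**Figure D4:**
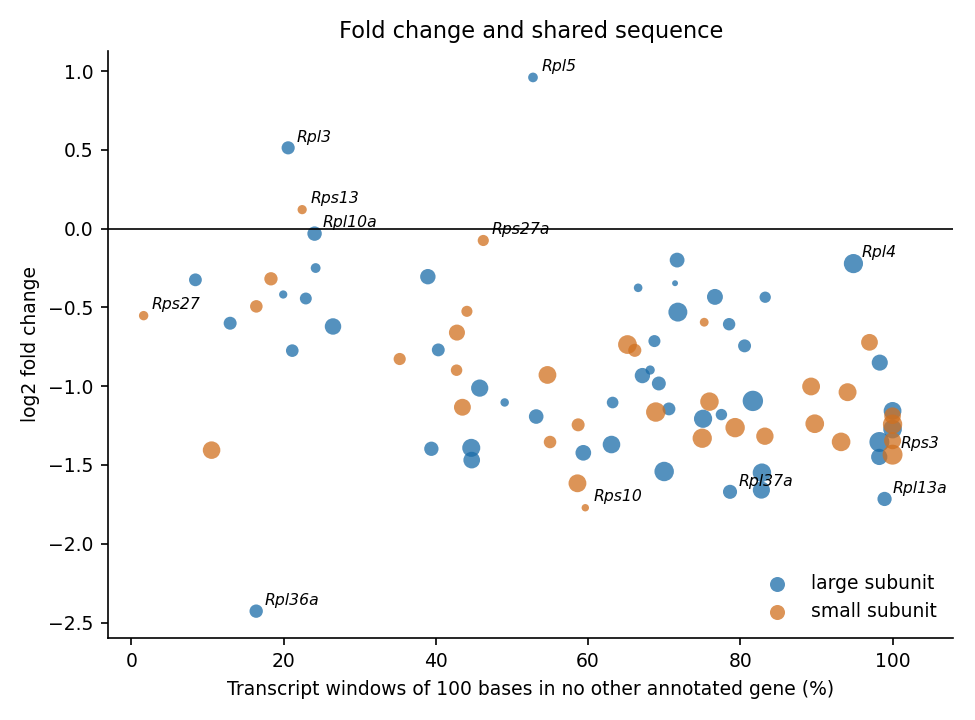
Log2 fold change (y axis) against the percentage of transcript windows of 100 bases found in no other annotated gene (x axis) for 82 members, larger points having more control CPM. The 14 members under 25% spread from -2.43 (Rpl36a) to 0.51 (Rpl3), and the 30 members above 75% lie between -1.72 (Rpl13a) and -0.22 (Rpl4).

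Rps27 and Rps27rt share almost all of their sequence. Rps27 (chr3:90212522-90213651, minus strand) is spliced from 4 exons. Rps27rt (chr9:114982366-114982739, minus strand), with 1 exon, has the form of a retrocopy, that is, a gene made from a reverse-transcribed mRNA. Their coding sequences of 255 bases are identical, so that a read from these bases cannot be told apart by sequence:
Rps27 and Rps27rt coding sequence (GENCODE, GRCm38): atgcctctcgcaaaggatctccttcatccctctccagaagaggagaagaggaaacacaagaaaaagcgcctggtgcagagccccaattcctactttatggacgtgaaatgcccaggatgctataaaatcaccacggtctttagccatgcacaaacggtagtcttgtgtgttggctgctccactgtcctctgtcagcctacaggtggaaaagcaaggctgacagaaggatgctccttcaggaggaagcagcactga
Of the windows of Rps27, 1.63% were in no other gene. Rps27 had 52, 96, 63 and 74 counts in the controls and 43, 51, 33 and 52 counts with overexpression. Rps27rt had 5778, 8276, 6233 and 6903 counts in the controls and 2022, 3169, 2055 and 2421 counts with overexpression. Almost all counts of the pair were thus on the intronless copy, in both groups. In CPM, Rps27rt had 468 ± 64.5 in the controls and 177 ± 3.39 with overexpression (SD, n = 4). The fitted log2 change was -1.41 ± 0.12 (SE; edgeR adjusted p = 1.42e-06). Rps27 had 4.84 ± 0.749 and 3.31 ± 0.546 CPM, a log2 fold change of -0.55 ± 0.19 (SE; edgeR adjusted p = 0.0237), and for Rps27 the call was lost without control library 2 or 4 or overexpression library 2 or 3 (adjusted p up to 0.0839). Which locus the RNA came from cannot be told apart in these counts.

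Ratios of paralog to parent gene within a library do not depend on scaling. Of 4 ratios compared, none passed after adjustment over the 4, and with 4 libraries against 4 the smallest possible exact p is 0.0286. Rps27l, a p53-inducible paralog, over Rps27 was 81.3, 57.7, 59.1 and 66.6 in the controls and 34.8, 44.3, 44.4 and 32.1 with overexpression. All overexpression ratios were lower (log2 difference -0.77, two-sided exact permutation p = 0.0286, adjusted 0.0571). The counts of Rps27 in it are those that cannot be parted from Rps27rt. Rps27l itself shared no window with another gene and fell, close in size to Rps27rt, its mean going from 321 ± 69.6 to 126 ± 2.15 CPM (SD, n = 4) and its log2 fold change being -1.35 ± 0.15 (SE; edgeR adjusted p = 9.71e-06).

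Rpl7l1 over Rpl7 was 0.118, 0.134, 0.126 and 0.167 in the controls and 0.118, 0.106, 0.105 and 0.103 with overexpression. The groups touched without overlapping (log2 difference -0.33, two-sided exact permutation p = 0.0286, adjusted 0.0571). Rpl7 had 1633, 1320, 1095 and 1159 CPM in the controls and 864, 901, 924 and 917 CPM with overexpression. Rpl7l1, which acts in assembly of the large subunit, had 194, 177, 138 and 193 CPM against 102, 95.3, 96.7 and 94.7 CPM. Both fell, with log2 fold changes of -0.53 ± 0.13 and -0.85 ± 0.12 (SE; edgeR adjusted p = 0.00306 and 7.54e-05). After removal of the length trend Rpl7 had no call (log2 fold change 0.03, edgeR adjusted p = 0.846), while Rpl7l1 stayed lower at -0.81.

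Rpl22l1 over Rpl22 was 0.250, 0.255, 0.304 and 0.200 in the controls and 0.210, 0.213, 0.196 and 0.199 with overexpression, with the groups overlapping (log2 difference -0.29, two-sided exact permutation p = 0.0857, adjusted 0.114). Rpl22 had 630, 520, 392 and 641 CPM against 244, 240, 255 and 240 CPM. Rpl22l1, its close paralog, had 157, 133, 119 and 128 CPM against 51.3, 51.0, 50.01 and 47.8 CPM. Both genes were lower without overlap, by -1.16 ± 0.15 and -1.42 ± 0.11 in log2 (SE; edgeR adjusted p = 2.78e-05 and 1.03e-06).

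**Figure D5:**
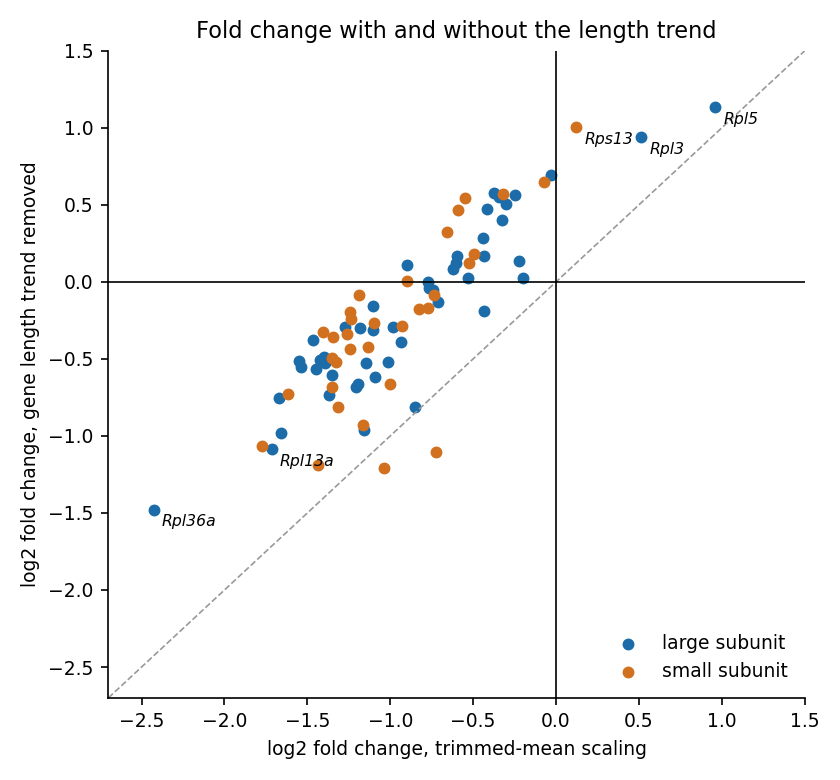
Log2 fold change of 82 members as tested (x axis) and with the trend of fold change with transcript length removed (y axis), the dashed line marking equality. Points above 0 on the y axis include the 12 members called higher after removal, and Rpl36a is lowest on both axes.

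Among the 12 members called higher with the length trend removed were Rpl3, Rpl5, Rpl10, Rpl10a, Rpl19, Rpl24, Rps12, Rps13, Rps27, Rps27a and Rps29. Of the 12, 4 (Rpl10, Rps27 and Rps29 among them) had been called lower before, so that their direction turns on this choice. A further 24 members called lower had no call after removal. Among those lower under both were Rplp0, Rplp1, Rplp2, Rpl12, Rpl8, Rpl13a, Rpl36a, Rps3, Rps10 and Rps19.

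Genes that work with the ribosomal proteins were read from lists in the same fit. Among ribosomal proteins under other symbols, Rack1, a scaffold on the small subunit, stood at 3105 ± 879 CPM in the controls and 1550.0 ± 16.5 with overexpression (SD, n = 4). Fau, a ubiquitin-like fusion, had a log2 fold change of -1.27, and edgeR called both lower. Of 75 tested mitochondrial ribosomal protein genes, which serve the ribosomes inside mitochondria, 68 fell and 1 rose, with a median of -0.78. Once the length trend was removed, 47 of the 75 were lower and 3 higher, with a median of -0.40. Over all genes 32.1% fell as tested, and 30.7% were lower with the trend removed. As tested, a called decrease was thus found in most genes of both kinds of ribosome. With the length trend removed it was found in 41 of the 82 cytosolic members tested.

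Of 10 tested translation elongation genes 9 fell and none rose, with a median of -0.70, which was -0.74 with the length trend removed. Eef1b2 and Eef1g, subunits of the exchange factor for eEF1A, had log2 fold changes of -1.28 and -1.11, and Eif5a had -1.27. Of 24 other genes whose mRNAs are known to carry the pyrimidine tract, 19 fell and 1 (Eif4b, log2 fold change 0.36) rose, with a median of -0.53, which was -0.10 with the length trend removed. This list holds Rack1, Fau and 5 elongation genes as well. The counts of both lists compare with 32.1% of all genes lower and 32.3% higher.

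The assembly factors were called in both directions, and Bop1 was on the list of each subunit. Over all genes 32.1% fell and 32.3% rose, or 30.7% and 29.1% with the length trend removed. Of 42 tested for the small subunit, 21 fell and 4 rose (Bms1, Riok2, Utp6 and Wdr3, log2 fold changes 0.52, 0.60, 0.45 and 0.52), with a median of -0.30. Fbl, the rRNA methyltransferase fibrillarin, Bysl and Pno1, those with the smallest edgeR p, had log2 fold changes of -1.36, -1.14 and -0.99. Of 47 for the large subunit, 24 fell and 4 rose (Gnl2, Las1l, Mdn1 and Rpf1, log2 fold changes 0.51, 0.60, 0.55 and 0.53), with a median of -0.31. Rrs1, Grwd1 and Nip7 were lower, at -1.23, -1.27 and -1.13. In the fit without the length trend the medians were -0.20 and -0.21, with 18 lower and 3 higher for the small and 22 lower and 3 higher for the large subunit, and Mdn1 turned to -0.38 (edgeR adjusted p = 0.00367). These medians lay near the -0.29 of the ribosomal protein genes in the same fit, and the difference was not tested.

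Of 11 nucleolar genes, 9 fell and none rose, with a median of -0.58, against 32.1% lower over all genes. Their list shares Fbl, Nop56 and Nop58 with the small subunit assembly factors, and Npm1 with the pyrimidine tract list. Without the length trend 8 were lower and the median was -0.81. Nhp2, Gar1 and Nop10, of the particles that turn uridine to pseudouridine in rRNA, had log2 fold changes of -2.07, -1.41 and -1.05. Of 16 tested genes of mTORC1 and LARP1 control, 5 fell and 3 rose, a share lower of 31.3% against 32.1% over all genes. After removal of the length trend 9 were lower and 1 higher, with a median of -0.30, against 30.7% and 29.1% of all genes. Eif4ebp1, the translation repressor that mTORC1 phosphorylates, went from 277 ± 75.8 to 67.1 ± 3.03 CPM and Deptor, an inhibitor of mTOR, from 24.2 ± 6.87 to 123 ± 5.17 CPM (SD, n = 4). Their log2 fold changes were -2.04 and 2.34, and edgeR's adjusted p were 2.07e-06 and 4.71e-07 respectively. Akt1s1 fell (-1.12), and Larp4 (0.60) and Rps6kb1 (0.68) rose, but both of the latter lost the call with the length trend removed (edgeR adjusted p = 0.346 and 0.0516).

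Markers of liver and other cell types were summed per library. The 20 hepatocyte markers summed to 4619 to 7191 CPM in the controls and 4422 to 4846 CPM with overexpression, with Apoa2, Asgr1 and Ahsg under 10 counts over all libraries. Within this sum 4 of 14 tested markers fell and 4 rose: Ttr went from a mean of 1320 to 278 CPM and Afp from 19.9 to 3.31 CPM, while Alb went from 22.3 to 267 CPM and Fga from 0.345 to 2.96 CPM. The hepatocyte markers thus changed in both directions while their sum moved less. Most of that sum was Krt8 (mean 2169 CPM in the controls and 2209 with overexpression) and Krt18 (1860 and 1239), so it reflects few genes. The 8 cholangiocyte markers summed to 2896 to 4285 and 4611 to 5230 CPM. This rise was carried by Spp1 (mean 942 and 2729 CPM), while Krt19 and Sox9 fell (log2 fold changes -0.40 and -0.66) and the median of 5 tested was -0.16. The 12 fibroblast and stellate markers summed to 4.00 to 5.84 and 10.4 to 17.6 CPM, with Col1a2, Col3a1, Lum and Lrat at 0. The 8 endothelial markers summed to 0.437 to 1.34 and 3.31 to 4.24 CPM, and the 8 leukocyte markers to 30.2 to 36.3 and 13.1 to 16.5 CPM, with Adgre1, Clec4f and Cd3e at 0. The fibroblast sum was mostly Des and the leukocyte sum mostly Csf1r, so each reflects few genes. The part of these markers in the ribosomal protein values was not tested.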

How the data were processed

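Read counts per gene symbol were deposited by the authors as 1 table of 8 libraries. Per the submitters' processing notes, FastQC, STAR and HTSeq were used with mm10. Not given in the sources used here: versions, annotation, strand setting and treatment of multiply matching reads. Per the labels' protocols, RNA was isolated with Trizol and libraries were made with a NEBNext Ultra kit.

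The deposited counts were tested with edgeR 4.0.16 in R 4.3.3 (trimmed-mean scaling, filterByExpr with a minimum count of 10, quasi-likelihood test over all 8 libraries). DESeq2 1.42.0, limma 3.58.1, other scalings and filters, a replicate block, length and GC trends removed by lowess (span 0.3) as offsets, and leaving out each library were the alternatives. The method was tested on simulated counts. No libraries were duplicates (chi-square per gene 2.46 to 108). Ratios of paralogs were compared where every library had at least 10 counts of each gene, by two-sided exact permutation tests.

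Gene models were GENCODE M21 (GRCm38), which matched 21926 of 21983 symbols and all 85 members. Windows of 100 bases were searched in annotated transcripts of other genes, not in a genome. Starts are from RefSeq.

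Members and lists were chosen with earlier results of these data known. Full values are given for the P stalk and 5S RNP genes, both genes of each ratio, the 4 members of each subunit at each end of the fold changes, members called higher, and the 3 per subunit with the highest control level per length. Of each list up to 3 called genes with the smallest p, and those against the majority, are named, except some items that are not reported here. Rpl4 and Rpl36al were added after their values were seen.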

Additional observations from a re-analysis of the deposited data

Results flagged for a closer look

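In 6 of the 172 groups of 4 libraries checked, 1 library lay far from the other 3 by Dixon's criterion, where chance gives about 1 group in 20. Rpl27 was 18.6 CPM in overexpression library 4 against 23.4 to 24.0 in the others. Rpl31 was 20.05 CPM in control library 3 against 28.5 to 28.6. Rpl35a was 1.54 CPM in overexpression library 1 against 2.79 to 2.98. Rpl4 was 1310 CPM in control library 4 against 1615 to 1660. Rps13 was highest in control library 1, at 5.39 CPM, against 4.06 to 4.22. Rps3 was 991 CPM in overexpression library 4 against 1039 to 1045. Rpl4 kept its direction without control library 4.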

How the results depend on the processing

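The count of members called lower stayed between 65 and 73 in every alternative but removal of the length trend, where it was 41 (22 large, 19 small), with 12 higher and medians of -0.290 (large) and -0.285 (small). Scaling to library totals raised the median of all genes to 0.13 and left 65 members lower and 2 higher. Of 82 tested members, 43 kept direction and side of the threshold in all 19 alternatives, 28 changed with the length trend only, and 24 changed sign somewhere.

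With the length trend removed the sign turned, in log2 fold change, for Rpl10 (0.40), Rpl10a (0.70), Rpl15 (0.025), Rpl17 (0.29), Rpl19 (0.50), Rpl23 (0.17), Rpl23a (0.48), Rpl24 (0.57), Rpl35a (0.58), Rpl36al (0.55), Rpl37 (0.12), Rpl38 (0.11), Rpl4 (0.14), Rpl7 (0.026), Rpl7a (0.081), Rpl9 (0.17), Rps12 (0.57), Rps18 (0.0084), Rps27 (0.55), Rps27a (0.65), Rps29 (0.47), Rps6 (0.18), Rps7 (0.12) and, downwards, Mdn1 (-0.38). With GC content it turned for Rpl10a (0.28) and Rpl19 (0.012), with library totals for Rpl10a (0.10) and Rps27a (0.047), and on leaving out 1 library for Rpl10a (range -0.132 to 0.018, the highest without control library 4) and Rps27a (range -0.196 to 0.042, the highest without overexpression library 2). The cause was not tested. Called-lower members that lost the call outside the length trend were Rpl10, Rpl17, Rpl21, Rps27 and Rps29 (5 in all).

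With a replicate block 68 members were lower and 2 higher, and among the members only Rpl10 lost its call. Deviations from the group mean correlated at -0.119 to 0.0227 between same-numbered libraries. With 4 libraries per group, such correlations cannot tell whether the numbers pair the libraries. In the block the smallest possible exact permutation p is 0.125, for Rpl7l1 over Rpl7 (-0.325) and Rps27l over Rps27 (-0.769). Leaving out 1 library, where no exact permutation p can go below 0.0571, these ranged from -0.389 to -0.225 and from -0.838 to -0.666. The tested members with the fewest counts over all libraries were Rpl36al (90) and Rps10 (145), whose values are accordingly imprecise.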
